A study of Mus musculus with 2 samples.

Results

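The secreted factors, receptors and antagonists through which keratinocytes (KCs) address immune cells and melanocytes were followed across the cells of newborn mouse epidermis in 10 genes, taken by their symbols from the row names of both count matrices. They were the chemokines Cxcl14 and Ccl27a, the atypical chemokine receptor Ackr4, the growth factors Kitl, Csf1 and Il34, and the cytokine genes Il18, Il1a, Il1rn and Tslp. The symbols matched 12 of the 27998 rows, because Ccl27a stands in 3 rows, of which the gene on chromosome 4 held 5503 and 9057 unique molecular identifiers (UMIs) in the 2 mice. Its other two rows, copies of the gene, held 1 UMI in all, and levels of Ccl27a below are those of the chromosome 4 row.

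Epidermis of 2 male C57BL/6J mice at postnatal day 0 was dissociated, cleared of dead cells and sequenced as one 10x Genomics 3′ library per mouse. Both mice were Chrm3 KO, lacking the M3 muscarinic acetylcholine receptor, so every level below was measured in the knockout and no wild-type library was analysed here. After the filters 7607 cells of KO mouse 1 and 11881 cells of KO mouse 2 remained, with median depths of 10480 and 10577 UMIs per cell. Chrm3 itself gave 13 and 19 UMIs in these cells, and whether the counted 3′ end lies in the deleted part is not given in the sources used here. The libraries shared 127 cell barcodes, and called doublets made up 1.62% and 4.21% of the cells.

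In skin these genes cover the main routes by which the epithelium positions and sustains resident cells. CXCL14 and CCL27 are chemokines made by KCs, CCL27 acting through CCR10 on skin-homing T cells, and ACKR4 binds and removes the CCR7 and CCR9 ligands without signalling to G proteins. IL-34 and CSF1 share the receptor CSF1R, through which IL-34 maintains Langerhans cells, and KIT ligand acts on the KIT receptor of melanocytes. IL-1α and IL-18 are cytokines of the IL-1 family, the IL-1 receptor antagonist encoded by Il1rn competes with IL-1 for its receptor, and TSLP acts on dendritic and lymphoid cells through CRLF2 and IL7R.

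The upstream sequences are shown for Cxcl14, Il1rn and Il18, whose levels below peaked in 3 different layers or clusters of the epidermis. Each runs 5′ to 3′ on the strand of the gene, from base −250 to base −11 before a RefSeq start site in build GRCm38.p6. None overlaps a GENCODE exon. Capitals mark TATAAA, or the AP-1 consensus TGANTCA, searched on both strands. The Cxcl14 stretch lies at chr13:56296562-56296801 on the minus strand, the Il1rn stretch at chr2:24336610-24336849 on the plus strand, and the Il18 stretch at chr9:50554450-50554689 on the plus strand.
Cxcl14: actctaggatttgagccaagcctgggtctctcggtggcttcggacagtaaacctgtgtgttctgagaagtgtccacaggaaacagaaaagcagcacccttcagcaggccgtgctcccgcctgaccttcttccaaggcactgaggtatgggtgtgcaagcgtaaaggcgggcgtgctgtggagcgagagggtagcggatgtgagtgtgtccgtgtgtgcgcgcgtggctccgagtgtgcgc
Il1rn: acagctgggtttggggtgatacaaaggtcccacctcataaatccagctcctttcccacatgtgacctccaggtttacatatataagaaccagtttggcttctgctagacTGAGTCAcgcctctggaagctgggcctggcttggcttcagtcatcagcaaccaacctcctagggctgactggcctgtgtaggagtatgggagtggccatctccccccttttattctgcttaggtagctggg
Il18: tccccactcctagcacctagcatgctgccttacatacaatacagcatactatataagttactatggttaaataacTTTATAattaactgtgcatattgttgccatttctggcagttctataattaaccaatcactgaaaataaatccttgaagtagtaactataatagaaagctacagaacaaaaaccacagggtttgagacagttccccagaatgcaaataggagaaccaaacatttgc
The Cxcl14 stretch held neither motif and was 59.2% G and C. The Il1rn stretch, 52.5% G and C, held 1 AP-1 consensus starting at base −141. It lies before the first of 3 listed start sites of Il1rn, and the stretches before the other sites held neither motif. The Il18 stretch was 35.4% G and C and held 1 TATAAA starting at base −175. That motif lies on the opposite strand and so reads TTTATA above. Among 32851 mouse promoter windows of the same 240 bases, 12.1% held TATAAA and 6.58% held the AP-1 consensus, and the letters of these motifs do not allow them to overlap.

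In the GENCODE annotation of GRCm38 Cxcl14 spans chr13:56288643-56296551, Ccl27a chr4:41769467-41774247, Il34 chr8:110741829-110805924, Csf1 chr3:107741048-107760469 and Ackr4 chr9:104084157-104126933, all on the minus strand. Kitl spans chr10:100015630-100100416, Il1rn chr2:24336853-24351494 and Il18 chr9:50554827-50581840, all on the plus strand, and Il1a spans chr2:129299610-129309972 on the minus strand. Ccl27a, Il34, Il18, Il1a and Ackr4 overlap genes on the opposite strand, and the strand setting of the counting is not given in the sources used here.

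Cells were clustered without the 10 genes and their pathway lists, and 15 classes were named from fixed markers, each with the suffix -like. They included 4439 basal interfollicular epidermis (IFE)-like cells, 810 dividing basal IFE-like, 451 transitional, 305 differentiated and 246 terminally differentiated IFE-like cells. A further 3923 were hair follicle-like, 847 upper hair follicle-like, 894 melanocyte-like and 338 Langerhans cell-like, and 3915 cells stayed unnamed. Levels are UMIs of a gene per 1000000 UMIs of the class (CPM), summed per mouse and given as mean ± SD over the 2 mice. Because transcript length and 3′ capture differ between genes, levels were compared between classes and not between genes.

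Cxcl14 marked the basal layer and the follicle. Its level was 1351 CPM in KO mouse 1 and 1245 CPM in KO mouse 2 in basal IFE-like cells, a mean of 1298 ± 75.0 CPM. Hair follicle-like cells followed with 1133 and 1041 CPM, and dividing basal IFE-like cells with 985 and 939 CPM. These 3 classes did not overlap over the mice, but some of their clusters did. The Pltp-led basal cluster held 1120 and 1050 CPM and the Shh-led follicle cluster 1142 and 1025 CPM. Outside the named classes, the unnamed cluster led by Pou3f1 held 1320 and 1243 CPM. The unnamed cluster led by Cdc20 held 1337 and 1284 CPM, and the other unnamed clusters held less. The level was 365 and 316 CPM in transitional IFE-like cells and 86.5 CPM on average in differentiated IFE-like cells, near the 82.4 ± 0.43 CPM of melanocyte-like cells. Within the transitional class Cxcl14 was 570 and 457 CPM in the H19-led and 108 and 138 CPM in the Stfa1- and Clca3a2-led cluster.

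Against basal IFE-like cells Cxcl14 was lower in transitional IFE-like cells by a log2 difference of -1.79 ± 0.27 (SE; edgeR adjusted p = 7.17e-06). It was lower in differentiated IFE-like cells by -3.70 ± 0.29 (edgeR adjusted p = 5.02e-11). The difference of dividing basal IFE-like cells, -0.58 ± 0.25, did not pass (edgeR adjusted p = 0.126), but did with the mouse as a replicate block (edgeR adjusted p = 0.0133), with no filter on low counts and at clustering resolution 1.2. That of hair follicle-like cells was -0.41 ± 0.25 (edgeR adjusted p = 0.222), and passed with no filter and at resolution 1.2 (adjusted p = 0.00501 and 0.0323). With each cell thinned to 3000 UMIs, 96.1% and 94.3% of basal IFE-like cells held a Cxcl14 UMI, against 14.9% and 17.9% of differentiated IFE-like cells. In melanocyte-like cells the shares were 16.8% and 17.1%, near those of differentiated IFE-like cells. Median depths before thinning were 7672 and 8498 UMIs in melanocyte-like and 18182 and 17209 UMIs in differentiated IFE-like cells. The part of RNA from other cells in these shares was not tested.

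Among the named classes Ackr4 was highest in basal IFE-like cells. Basal IFE-like cells held 179 and 121 CPM, 52.5% of all its UMIs as a mean of the mice. Dividing basal IFE-like cells held 80.9 and 60.0 CPM and transitional IFE-like cells 68.8 and 41.8 CPM. The ranges of these latter 2 classes overlapped over the mice, though dividing basal IFE-like cells were the higher within each mouse. Basal IFE-like cells stood above both. KO mouse 1 was the higher in each of the 3 classes. The transitional mean covered unlike clusters, with 115 and 67.9 CPM in the H19-led and 10.9 and 8.76 CPM in the Stfa1- and Clca3a2-led cluster. Hair follicle-like cells, whose Cxcl14 came second, held 17.6 and 15.97 CPM of Ackr4, and melanocyte-like cells 4.39 and 1.15 CPM.

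Ackr4 was lower than in basal IFE-like cells in every one of the 9 classes tested, from -1.26 ± 0.24 in dividing basal IFE-like cells (edgeR adjusted p = 0.000368) to -6.11 ± 0.41 in melanocyte-like cells (adjusted p = 5.08e-13). In hair follicle-like cells the log2 difference was -3.32 ± 0.25 (edgeR adjusted p = 2.80e-11). By DESeq2 the calls in dividing basal and transitional IFE-like cells were lost (adjusted p = 0.230 and 0.135). Among the basal clusters Ackr4 stood at 201 ± 50.9 CPM in the one led by Pcsk2 and Atf3 and at 191 ± 60.7 CPM in the one led by H19 and Igf2. The remaining basal cluster, led by Pltp, Fst and Ptch1, held 71.7 ± 13.4 CPM. Outside the named classes, the unnamed cluster led by Pou3f1, Slco2a1 and Defb1 held Ackr4 at 184 and 121 CPM.

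**Figure D1:**
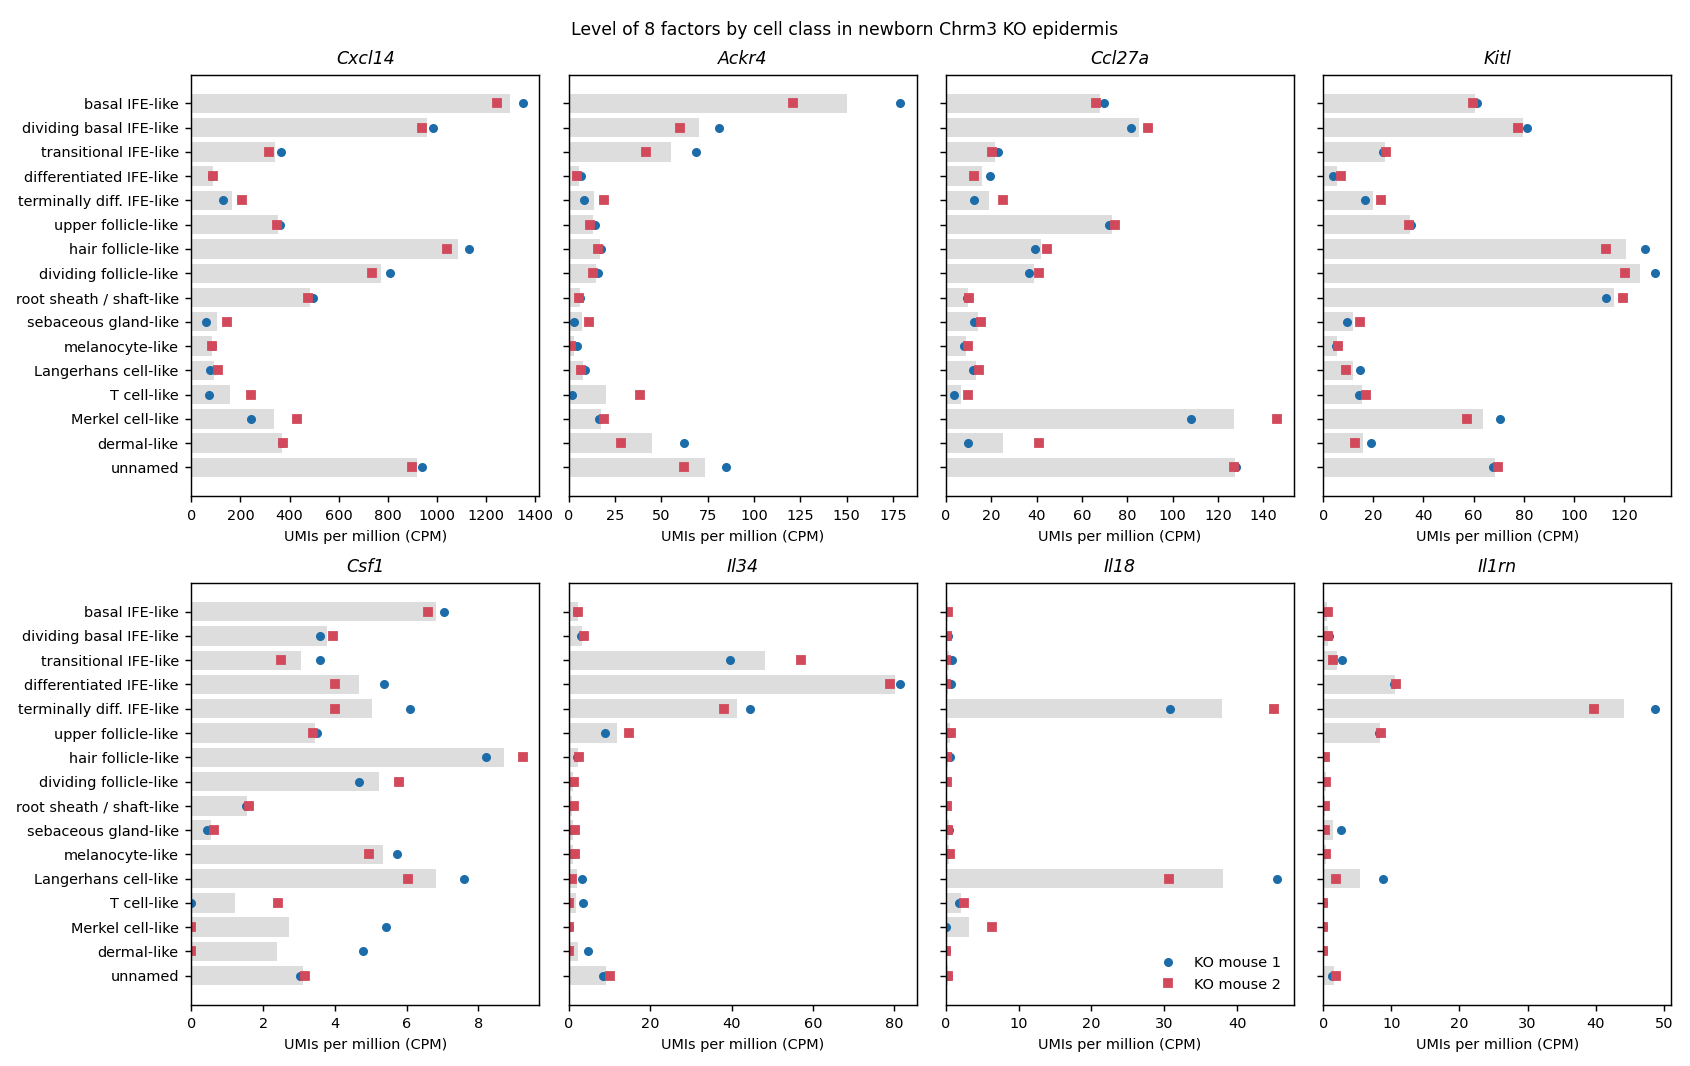
Level of the 8 members with enough UMIs to be tested, in CPM (linear axes from 0), in 15 named classes and the unnamed cells. Points are the 2 KO mice and grey bars their mean. Cxcl14 and Ackr4 peak in basal IFE-like cells, and Kitl in dividing hair follicle-like, hair follicle-like and inner root sheath and hair shaft-like cells. Il34 peaks in differentiated IFE-like cells and Il1rn in terminally differentiated IFE-like cells.

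Kitl, the ligand of the melanocyte receptor KIT, stood highest in 3 of the follicle classes. Dividing hair follicle-like cells held 132 and 120 CPM, hair follicle-like cells 128 and 113 CPM, and inner root sheath and hair shaft-like cells 113 and 119 CPM. Neighbours among these 3 classes overlapped over the mice. Dividing basal IFE-like cells came next with 81.1 and 77.8 CPM, and basal IFE-like cells held 61.3 and 59.9 CPM. Upper hair follicle-like cells held less, at 35.1 and 34.0 CPM. The few Merkel cell-like cells held 70.4 and 57.2 CPM, from 13 and 9 UMIs, and overlapped basal IFE-like cells. The lowest levels were 5.49 ± 2.22 CPM in differentiated IFE-like and 5.40 ± 0.47 CPM in melanocyte-like cells.

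Hair follicle-like cells exceeded basal IFE-like cells in Kitl by a log2 difference of 0.83 ± 0.11 (edgeR adjusted p = 5.30e-07). In upper hair follicle-like cells Kitl was lower, by -0.93 ± 0.12 (edgeR adjusted p = 2.50e-07). The gene fell with differentiation, by -1.16 ± 0.14 in transitional IFE-like cells (edgeR adjusted p = 5.13e-07) and -3.23 ± 0.19 in differentiated IFE-like cells (adjusted p = 2.09e-13). Dividing basal IFE-like cells differed by 0.24 ± 0.11 (edgeR adjusted p = 0.164), and passed by DESeq2 (adjusted p = 0.0107), at resolution 1.2 (0.0176), without integration of the libraries (0.0391) and with clusters kept whose names rested on weaker marker evidence (0.0329). Its receptor Kit stood at 466 and 497 CPM in melanocyte-like cells and at 0.7 CPM on average in basal IFE-like cells, a log2 difference of 9.11 ± 0.39 (edgeR adjusted p = 5.50e-17). Ligand and receptor thus stood highest in different classes.

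The class means of Ccl27a were similar in basal IFE-like and upper hair follicle-like cells. Its level was 81.6 and 89.1 CPM in dividing basal IFE-like cells, 71.9 and 74.7 CPM in upper hair follicle-like cells and 69.9 and 66.1 CPM in basal IFE-like cells. The few Merkel cell-like cells, 20 and 19 per mouse, held 108 and 146 CPM from 20 and 23 UMIs. Differentiated IFE-like cells held 19.3 and 12.3 CPM, and melanocyte-like cells 7.77 and 9.55 CPM. Against basal IFE-like cells it was lower in transitional IFE-like cells by -1.51 ± 0.19 (edgeR adjusted p = 7.68e-07), and upper hair follicle-like cells differed by -0.01 ± 0.15 (adjusted p = 0.963). That last comparison depended on which clusters entered the class, since the difference was -1.51 and called at resolution 1.2, and -0.78 and called without integration of the libraries. In dividing basal IFE-like cells the difference was 0.18 ± 0.15 (edgeR adjusted p = 0.455). At resolution 1.2 it turned to -0.71 and was called lower (edgeR adjusted p = 0.000372). In hair follicle-like cells it was -0.85 ± 0.15 (edgeR adjusted p = 3.23e-05), and turned to 0.31, not called, with clusters of weaker names kept (adjusted p = 0.0830).

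The class mean of upper hair follicle-like cells covered unlike clusters for Ccl27a. The 148 cells of the cluster led by Krt77, Krt6a and Krt16 held 330 and 287 CPM, 48.3% of the Ccl27a UMIs of the class from 17.5% of its cells. That cluster came from the second clustering of the suprabasal cells. The 699 cells of the other cluster, led by Krt79 and Krt75, held 39.1 and 46.3 CPM, below the 69.9 and 66.1 CPM of basal IFE-like cells. An unnamed cluster led by Pou3f1, Slco2a1 and Defb1 held 282 and 259 CPM and stood above the 3 basal clusters, whose means were 108 CPM or below. The unnamed cells held 36.0% of all Ccl27a UMIs, the largest part of any group, so the named classes describe this gene incompletely.

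**Figure D2:**
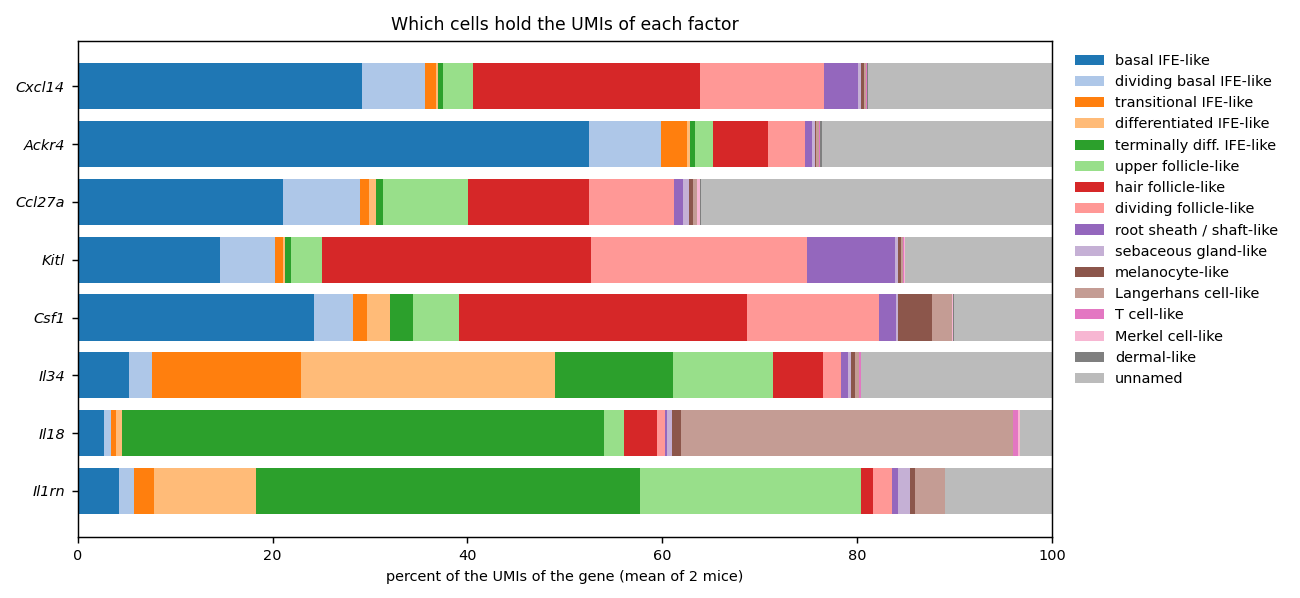
Percent of each gene's UMIs found in each cell class, as the mean of the 2 KO mice, for 8 members; bars sum to 100. Basal IFE-like cells hold 52.5% of Ackr4 UMIs, unnamed cells 36.0% of Ccl27a UMIs, and terminally differentiated IFE-like cells 49.5% of Il18 and 39.5% of Il1rn UMIs.

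Il34 and Csf1, the ligands of CSF1R, had their highest means in different classes. Il34 was 81.4 and 78.9 CPM in differentiated IFE-like cells, 39.6 and 57.0 CPM in transitional and 44.6 and 38.1 CPM in terminally differentiated IFE-like cells. The transitional and terminal class values overlapped over the mice, and the differentiated class stood above both. Within the transitional class Il34 was 27.2 and 36.7 CPM in the H19-led and 55.2 and 82.6 CPM in the Stfa1- and Clca3a2-led cluster. The latter cluster overlapped the differentiated class over the mice. Basal IFE-like cells held 2.13 and 2.37 CPM, and hair follicle-like cells 2.11 and 2.55 CPM. The log2 difference from basal IFE-like cells was 4.56 ± 0.26 in transitional (edgeR adjusted p = 1.25e-12), 5.33 ± 0.25 in differentiated (adjusted p = 3.29e-15) and 4.40 ± 0.27 in terminally differentiated IFE-like cells (adjusted p = 1.92e-13). Upper hair follicle-like cells, at 8.99 and 14.9 CPM, were also higher, by 2.27 ± 0.27 (edgeR adjusted p = 1.07e-07). After thinning, 24.1% and 22.2% of differentiated IFE-like cells held an Il34 UMI, against 0.30% and 0.37% of melanocyte-like cells.

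Csf1 was low in every class, at 8.21 and 9.24 CPM in hair follicle-like cells and 7.05 and 6.60 CPM in basal IFE-like cells. These classes did not overlap over the mice, but the log2 difference was 0.21 ± 0.18 (edgeR adjusted p = 0.403). Differentiated IFE-like cells, the highest class of Il34, held Csf1 at 5.36 and 3.99 CPM. Their difference from basal IFE-like cells was -0.35 ± 0.29 (edgeR adjusted p = 0.348). The highest mean of Csf1 lay in differentiated IFE-like cells under 5% mitochondrial UMIs, and in basal IFE-like cells with weaker names kept. Within the hair follicle-like class the 1125 cells of the Shh-led cluster held 24.0 and 27.8 CPM, 83.0% of the Csf1 UMIs of the class from 28.7% of its cells. Shh, the hedgehog ligand of the growing follicle, stood at 181 and 191 CPM in that cluster and at 2.44 to 5.44 CPM in the other two hair follicle-like clusters. Csf1 was lower than in basal IFE-like cells in sebaceous gland-like cells by -3.59 ± 0.50 (edgeR adjusted p = 8.39e-07) and in upper hair follicle-like cells by -1.10 ± 0.23 (adjusted p = 0.000287).

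The shared receptor Csf1r was 430 and 493 CPM in Langerhans cell-like cells, and its mean in the other 14 classes was highest in differentiated IFE-like cells, at 1.40 CPM. The log2 difference of Langerhans cell-like from basal IFE-like cells was 11.43 ± 0.28 (edgeR adjusted p = 4.43e-20). Langerhans cell-like cells held Il34 at 3.16 and 0.93 CPM and Csf1 at 7.59 and 6.04 CPM. PTPRZ1 and syndecan-1 also bind IL-34. Ptprz1 had its highest mean in the few Merkel cell-like cells, at 119 and 70.0 CPM, and overlapped there with the 92.3 and 68.9 CPM of basal IFE-like cells. It was 80.6 ± 16.5 CPM in basal IFE-like and lower, at 9.3 CPM, in differentiated IFE-like cells, a log2 difference of -2.89 ± 0.25 (edgeR adjusted p = 2.53e-10). Sdc1 rose by 1.21 ± 0.13 in the same comparison (edgeR adjusted p = 2.20e-08), and its highest means were 324 ± 35.1 CPM in upper hair follicle-like and 272 ± 8.13 CPM in dermal-like cells.

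Il18 and Il1rn both stood high in terminally differentiated IFE-like cells, but in different clusters of that class. Il18 was 30.8 and 45.1 CPM in the class and 45.6 and 30.7 CPM in Langerhans cell-like cells, and these 2 classes overlapped over the mice. The next class, Merkel cell-like, rested on 1 UMI. Il1rn was 48.7 and 39.7 CPM in terminally differentiated IFE-like cells, 10.4 and 10.7 CPM in differentiated and 8.24 and 8.45 CPM in upper hair follicle-like cells. Langerhans cell-like cells held 8.86 and 1.86 CPM of Il1rn, from 14 and 4 UMIs.

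The log2 difference of terminally differentiated from basal IFE-like cells was 7.32 ± 0.38 for Il18 (edgeR adjusted p = 6.16e-15) and 6.43 ± 0.36 for Il1rn (adjusted p = 1.96e-13). Without integration of the libraries the Il1rn difference was 2.84 and its call was lost (edgeR adjusted p = 0.0804), and its highest mean lay in upper hair follicle-like cells, or at resolution 1.2 in differentiated IFE-like cells. Il18 in differentiated IFE-like cells rested on 2 UMIs and differed by 0.51 ± 1.199 (edgeR adjusted p = 0.770), whereas Il1rn was already higher there, by 4.34 ± 0.44 (adjusted p = 1.47e-08). In transitional IFE-like cells Il1rn, with 7 and 5 UMIs, barely passed at 1.87 ± 0.70 (edgeR adjusted p = 0.0496) and failed under 4 of the alternatives. In Langerhans cell-like cells Il18 was higher by 7.27 ± 0.39 (edgeR adjusted p = 1.09e-14).

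The 111 cells of the Lce-led cluster, named for late cornified envelope genes, held Il18 at 215 and 191 CPM, 95.3% of the Il18 UMIs of the class. The 135 cells of the Flg- and Lor-led cluster, Flg encoding filaggrin and Lor loricrin, held Il18 at 3.72 and 0.87 CPM. Il1rn ran the other way, with 54.9 and 50.03 CPM in the Flg- and Lor-led cluster and 6.32 and 5.74 CPM in the Lce-led cluster. Il34 followed Il1rn, with 47.7 ± 2.90 CPM in the Flg- and Lor-led and 11.2 ± 2.43 CPM in the Lce-led cluster. These cluster values are descriptions and were not tested.

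The Lce-led cells were also the shallower, with median depths of 5210 and 8950 UMIs against 27989 and 27315 UMIs in the Flg- and Lor-led cells. They held the basal keratin Krt14 at 4403 and 5188 CPM, against 326 and 738 CPM, and the spinous keratin Krt10 at 5496 and 3740 CPM, against 37192 and 36858 CPM. The Lce-led cluster further held 81.8% of the Kitl, 88.5% of the Ackr4 and 71.6% of the Cxcl14 UMIs of the class. Kitl was called lower in the class than in basal IFE-like cells (-1.37 ± 0.15, edgeR adjusted p = 2.02e-08). It stood higher, by 0.53 and 0.45, under the clusterings that left 110 or 114 cells in the class. The former passed (edgeR adjusted p = 0.0340) and the latter did not (adjusted p = 0.172). The part of basal cell RNA in these values was not tested. The 14 Langerhans cell markers summed to 60.0 and 54.5 CPM in the Lce-led cluster, with Cd74 at 12.6 and 4.30 CPM, against 28833 and 25677 CPM in Langerhans cell-like cells.

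**Figure D3:**
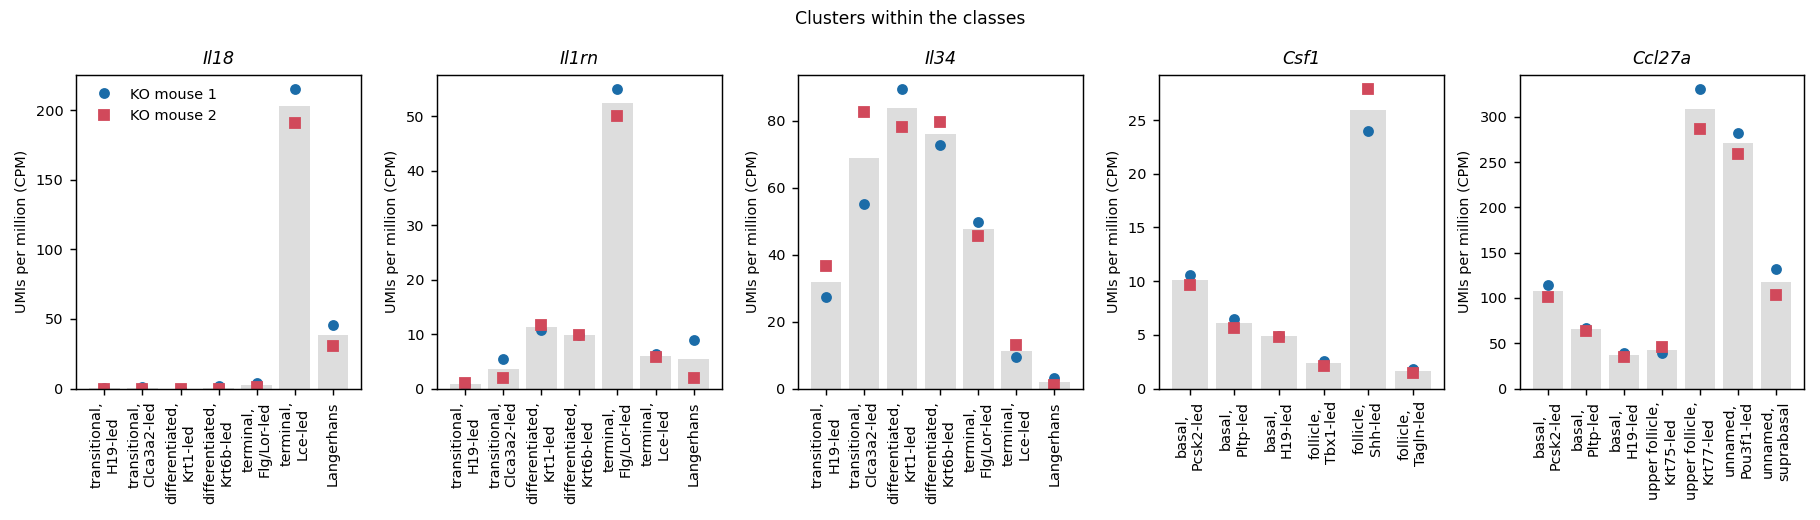
Level in CPM (linear axes from 0) of Il18, Il1rn, Il34, Csf1 and Ccl27a in single clusters, named by their class and leading genes. Points are the 2 KO mice and grey bars their mean; Il18 is at 215 and 191 CPM in the Lce-led cluster and Il1rn at 54.9 and 50.03 CPM in the Flg- and Lor-led cluster, Csf1 stands out in the Shh-led cluster and Ccl27a in the Krt77-led and Pou3f1-led clusters.

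Il1a and Tslp were at the edge of detection. Il1a gave 8 UMIs in KO mouse 1 and 7 UMIs in KO mouse 2 over all kept cells, of which 2 and 5 were in Langerhans cell-like cells. Tslp gave 1 and 7 UMIs, 5 of them in melanocyte-like cells of KO mouse 2. In basal IFE-like cells Il1a gave no UMI from 16465126 and 29077476 UMIs, which allows levels of up to 0.182 and 0.103 CPM by the limit of 3 counts. Neither gene passed the filter on low counts in the main analysis, and no class was compared for them there. Intervals and limits here cover counting error only.

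Of the 13494 genes tested, 15.1% differed between dividing and non-dividing basal IFE-like cells (edgeR adjusted p under 0.05), 26.7% between transitional and basal, 44.0% between differentiated and basal, and 49.0% between terminally differentiated and basal IFE-like cells. For hair follicle-like cells the share was 35.0%, and for upper hair follicle-like cells 42.1%. It was 50.2% for sebaceous gland-like, 52.2% for Langerhans cell-like and 51.5% for melanocyte-like cells. With the mouse as a replicate block the number of genes between dividing and non-dividing basal IFE-like cells was 3233 in place of 2031. The counts of members are set beside these shares. A member could pass the filter on low counts through the classes in which it was high, so these counts and medians are descriptions. Il18 was 0.18 and 0.31 CPM in basal IFE-like cells and 30.8 and 45.1 CPM in terminally differentiated IFE-like cells.

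In dividing basal IFE-like cells 2 of the 10 members were lower (Ackr4 and Csf1), where 8.79% of all genes tested were lower and 6.26% higher. The other 6 tested members did not pass, and both calls were lost with cells under 5% mitochondrial UMIs, and that of Csf1 also at resolution 1.2. In transitional IFE-like cells 2 members were higher and 5 lower, against 9.83% and 16.9% of all genes. The lower call of Csf1 there was lost with cells under 5% mitochondrial UMIs (-0.13, edgeR adjusted p = 0.983). The median log2 difference of the 8 tested members there was -1.11, against -0.12 over all genes tested. In differentiated IFE-like cells 2 were higher (Il34 and Il1rn) and 4 lower (Cxcl14, Ccl27a, Kitl and Ackr4), against 19.6% and 24.4% of all genes, with medians of -1.14 and -0.13. In terminally differentiated IFE-like cells Il18 joined the higher genes, giving 3 higher and 4 lower, against 23.4% and 25.6% of all genes, with medians of -0.80 and -0.11. Without integration 5 in place of 7 members passed there, and 9 in place of 8 were tested. Il1rn (2.84) and Ccl27a (-0.30, edgeR adjusted p = 0.425) lost their calls. Kitl turned to 0.45 and also lost its call (edgeR adjusted p = 0.172). The 5 therefore include a member that the main fit left untested. From basal to differentiated IFE-like cells the chemokines, Ackr4 and Kitl were thus lower and Il34 and Il1rn higher.

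In hair follicle-like cells Kitl was higher and Ccl27a, Ackr4 and Il1rn lower, where 18.4% of all genes were higher and 16.5% lower. The Il1rn call there rested on 1 and 7 UMIs (-1.72 ± 0.65, edgeR adjusted p = 0.0439), and was lost under 5% mitochondrial UMIs (adjusted p = 0.291), without integration (0.109) and with weaker names kept (0.766). In upper hair follicle-like cells Il34 and Il1rn were higher and Cxcl14, Csf1, Kitl and Ackr4 lower, against 21.0% and 21.1% of all genes. In sebaceous gland-like cells 5 members were lower and 3 did not pass, and of all genes 28.9% were lower and 21.3% higher. In melanocyte-like cells 4 were lower and 4 did not pass, and of all genes 26.1% were lower and 25.4% higher. In Langerhans cell-like cells Il18 and Il1rn were higher, and Cxcl14, Ccl27a, Kitl and Ackr4 lower, against 25.2% and 27.0% of all genes. All these comparisons share the basal IFE-like sums.

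**Figure D4:**
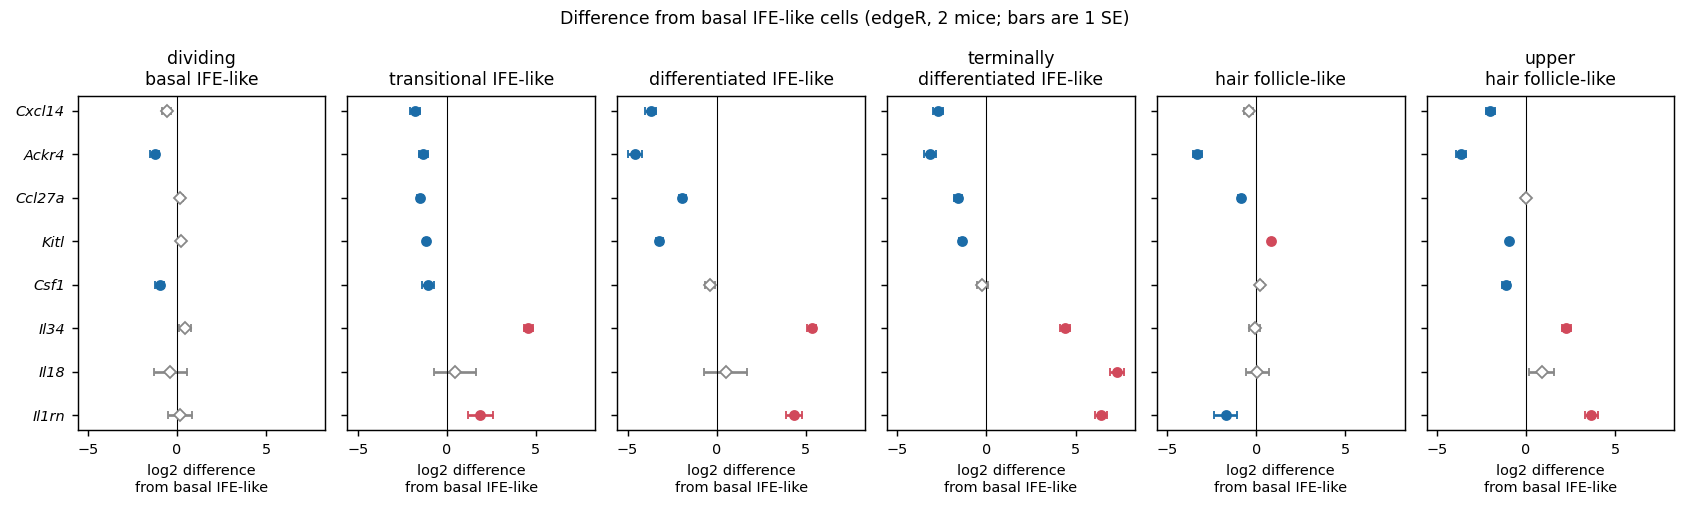
Log2 difference from basal IFE-like cells for 8 members in 6 KC classes, with bars of 1 SE (edgeR, 2 mice). Filled points passed an adjusted p of 0.05 (red higher, blue lower) and open diamonds did not; Il34 lies at 4.56, 5.33 and 4.40 in transitional, differentiated and terminally differentiated IFE-like cells while Ackr4 lies below 0 in all 6 panels.

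The receptors and binding partners of these factors comprised 16 genes, 14 of which were tested. In Langerhans cell-like cells 6 of these 14 were higher and 4 lower than in basal IFE-like cells, against 25.2% and 27.0% of all genes. A gene could pass the filter on low counts through a single class in which it was high, so such counts are descriptions. Crlf2, the TSLP receptor chain, was 147 and 138 CPM in Langerhans cell-like and 161 and 121 CPM in T cell-like cells, against 15.3 CPM in basal IFE-like cells. The log2 difference of Langerhans cell-like cells was 3.42 ± 0.15 (edgeR adjusted p = 3.61e-17). Il7r, the other TSLP receptor chain, was 29.7 and 28.4 CPM in Langerhans cell-like and 7.16 and 14.5 CPM in T cell-like cells. Il18r1, a chain of the IL-18 receptor, was 60.8 and 53.2 CPM in T cell-like cells and at 0.55 CPM or less on average in each other class. The other chain, Il18rap, was 46.5 and 38.7 CPM in T cell-like and also 16.4 and 20.0 CPM in Langerhans cell-like cells. Il1r1, the IL-1 receptor that the product of Il1rn blocks, was 25.03 ± 3.00 CPM in basal IFE-like cells and lower in differentiated IFE-like cells by -1.01 ± 0.19 (edgeR adjusted p = 7.29e-05). Ccr10, the receptor of CCL27, had its highest mean, 6.05 ± 8.55 CPM, in T cell-like cells, from 0 UMIs in KO mouse 1 and 5 UMIs in KO mouse 2.

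**Figure D5:**
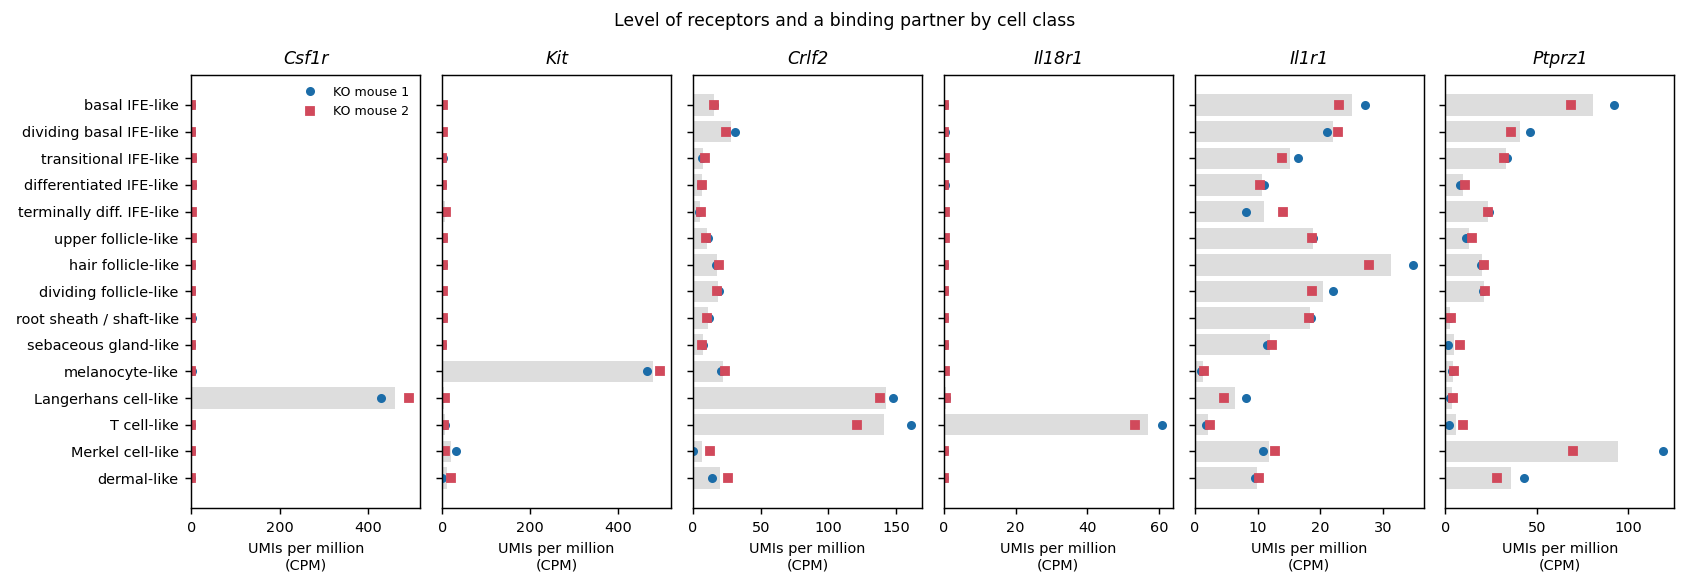
Level in CPM (linear axes from 0) of 5 receptors and the IL-34 binding partner Ptprz1 in the 15 named classes, with the 2 KO mice as points and their mean as grey bars. Csf1r stands in Langerhans cell-like cells at 430 and 493 CPM, Kit in melanocyte-like cells at 466 and 497 CPM and Il18r1 in T cell-like cells at 60.8 and 53.2 CPM, while Il1r1 has its highest mean in hair follicle-like cells and Ptprz1 in Merkel cell-like and basal IFE-like cells.

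Of the 17 other IL-1 family and inflammasome genes 12 were tested. In terminally differentiated IFE-like cells 9 were higher than in basal IFE-like cells, against 23.4% of all genes, and 3 did not pass. A gene could pass the filter on low counts through this class alone, so the count of 9 and the list medians below are descriptions. Il1f6 gave 52 and 47 UMIs there, against 0 and 8 UMIs in basal IFE-like cells. Il1f5, which encodes the IL-36 receptor antagonist, rose from 17.0 ± 0.10 to 268 ± 41.4 CPM, a log2 difference of 4.21 ± 0.19 (edgeR adjusted p = 3.24e-16). Gsdma and Gsdmc, which encode gasdermins, rose by 5.26 ± 0.27 and 5.78 ± 0.36 (edgeR adjusted p = 4.10e-15 and 5.25e-13). Gsdma was higher still in upper hair follicle-like cells, with 1488 and 1094 of 8012735 and 8519582 UMIs. Terminally differentiated IFE-like cells gave 250 and 237 of 2466075 and 2995957 UMIs. Pycard, the inflammasome adaptor, rose by 2.97 ± 0.15 and was highest, at 571 ± 43.0 CPM, in differentiated IFE-like cells. Casp1, which encodes the protease that processes pro-IL-18, gave 6 and 10 UMIs in terminally differentiated IFE-like cells and none in basal IFE-like cells, and was 34.1 ± 7.04 CPM in Langerhans cell-like cells. The median log2 difference of the 12 tested genes of the list was 4.73, against -0.11 over all genes tested. With Casp1 set to the limit of 3 counts in basal IFE-like cells, and 2 genes sparse in both classes left out, the list median was 5.25.

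The other chemokines and atypical receptors were 17 genes with 8 tested. In differentiated IFE-like cells 2 of these 8 were higher and 4 lower, against 19.6% and 24.4% of all genes. Ackr3, another scavenging receptor, fell from 26.6 ± 6.76 to 0.36 ± 0.51 CPM (log2 difference -6.05, edgeR adjusted p = 6.78e-10), and Cxcl10 fell from 27.5 ± 7.37 to 0.31 ± 0.43 CPM. Cxcl16 was 413 ± 7.03 CPM in Langerhans cell-like and 18.6 ± 1.79 CPM in basal IFE-like cells, a log2 difference of 4.68 ± 0.20 (edgeR adjusted p = 5.80e-17). Cxcl2 was 406 and 157 CPM in Langerhans cell-like cells.

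Of the 14 other factors for immune cells 8 were tested, with 2 higher and 4 lower in differentiated than in basal IFE-like cells, against 19.6% and 24.4% of all genes. In hair follicle-like cells 4 were higher, against 18.4% of all genes, and the other 4 did not pass. Tgfb2 rose from 2.99 ± 0.10 CPM in basal IFE-like to 97.8 ± 12.0 CPM in hair follicle-like cells (log2 difference 4.86 ± 0.19, edgeR adjusted p = 4.94e-16). Tgfb1, which Langerhans cells need, was 269 ± 8.99 CPM in Langerhans cell-like cells and 17.9 ± 1.37 CPM in basal IFE-like cells. Mif rose by 1.11 ± 0.15 in differentiated IFE-like cells (edgeR adjusted p = 6.22e-07), while Bmp7 fell by 1.18 on the log2 scale (adjusted p = 2.23e-06).

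Genes whose level followed a member most closely were ranked by Pearson's r of log2(CPM + 10) over the 30 sums of class and mouse, among 8276 genes. The sums of a class share their cells' identity, so r is a description. Cxcl14 was followed by Ajuba (r = 0.960), Bcam (0.955) and Wnt6 (0.927). Ackr4 was followed by Col17a1 (r = 0.912) and Lama3 (0.898), which encode parts of the basal anchorage to the basement membrane, and by Wnt16 (0.897). Kitl was followed by Lama5, Ptn and Igsf9 (r = 0.953, 0.945 and 0.932). Il34 was followed by Npl, Gadl1 and the keratin Krt16 (r = 0.962, 0.960 and 0.951), and Il1rn by Chit1, Clic3 and Casp14 (r = 0.949996, 0.944 and 0.939). Il18 reached r = 0.835 with Ifi30, and Ccl27a 0.837 with Tshz2. No gene exceeded r = 0.681 with Csf1, and Il1a and Tslp were too sparse for r to be read.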

How the data were processed

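The authors aligned and counted the reads with Cell Ranger 3.0.2 on mm10 per the labels, and deposited whole-number UMI counts per gene and barcode for each mouse. The labels name 3′ v1 chemistry, whereas the study's methods name another version. Groups came from the labels, with both samples Chrm3 KO and no wild-type data used.

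From the counts, barcodes were retained if they held between 900 and 7700 genes and a mitochondrial share of UMIs below 10%. Doublets were called with Scrublet (scanpy 1.11.5, expected rate 0.8% per 1000 cells, since its default marked almost none of mouse 1) and kept in the main analysis. Cells were integrated and clustered in Seurat 5.3.0 (2000 variable genes, 30 dimensions, resolution 0.8), with 77 genes kept out, namely the members, their lists and relatives. Clusters were named from 184 markers, by the markers among the 10 genes of highest fold. The Pltp-led basal cluster had none there and was named by mean enrichment. Cells clustered a second time kept a suprabasal name even where basal markers led. That was so in the 262 cells of the H19-led transitional cluster, with Krt14 at 24448 and Krt10 at 2520 CPM. A name needed 3 enriched markers, a mean enrichment above 0, no tie and at most 25% called doublets. These conditions, and clustering the suprabasal cells a second time, were set after the clusters had been seen and before any member level was computed.

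Counts were summed per mouse and class into 30 sums, and 13494 genes passed edgeR's filter. The quasi-likelihood test of edgeR 4.0.16 (TMM, 15 residual degrees of freedom, Benjamini-Hochberg adjustment over all genes, threshold 0.05) compared 9 classes with basal IFE-like cells. In simulated counts it recovered between 97.5% and 100% of 200 genes changed by a log2 of 2 in these comparisons, with at most 0.13% of the unchanged genes called. The changed genes were drawn above a minimum mean level, with a single common spread, and all other genes had the same mean in every class. These rates therefore do not cover sparse genes, or comparisons in which many genes differ. Each SE of a log2 difference is its absolute value divided by the square root of the F statistic, not an SE returned by the fit. Intervals are exact at the 95% level. Depth was 95048258 and 148843409 UMIs in kept cells. The 2 samples are separate mice. A replicate number marks the same mouse across classes, so the block was fitted as an alternative, though deviations of the 105 pairs of classes correlated at only -0.04 to 0.39. Other alternatives were DESeq2 1.42.0, its size factors, no filter, other cell sets and other clusterings.

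The genes named were the members, each list's 4 genes of highest mean CPM, the members' own receptors, the list gene with the largest called change in a class and 3 genes most like each member; Tgfb2, Gsdma, Gsdmc, Il1f5 and Casp1 fall under this rule. Markers, keratins and genes that lead clusters are named as context, after their values were seen. The members and lists were chosen with earlier results of these data known.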

Additional observations from a re-analysis of the deposited data

How the results depend on the processing

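The mouse as a replicate block called 3233 in place of 2031 genes between dividing and non-dividing basal IFE-like cells, added Cxcl14 there (log2 difference -0.59) and changed no other call of a member. DESeq2's size factors moved the share of higher genes there from 41.6% to 61.6% of calls, and DESeq2 moved it to 59.9%. In Langerhans cell-like cells DESeq2 moved it from 48.2% to 58.5%, and the median log2 difference of all genes from -0.14 to 0.06. With cells under 5% mitochondrial UMIs, which leaves fewer cells, 0 members passed by edgeR in dividing basal IFE-like cells (1 at an unadjusted p under 0.05, 2 in the main analysis), 556 genes passed there, 1309 in transitional (3609), 3243 in differentiated (5936), 1996 in hair follicle-like (4721), 4252 in sebaceous gland-like (6774) and 4415 in melanocyte-like cells (6945). At resolution 1.2 members passing in dividing basal IFE-like cells were 4, and with weaker names kept, chosen after seeing the data, 2 in place of 4 passed in hair follicle-like cells. Without integration 2144 genes passed in transitional IFE-like cells. The terminally differentiated IFE-like class held 110 cells at resolution 1.2 and 114 without integration, against 246, with 2020 and 1912 genes called in place of 6618. Kitl then stood above basal IFE-like cells there (0.53 and 0.45), and was called higher at resolution 1.2 only. Ccl27a turned to -0.71, called, in dividing basal IFE-like cells at resolution 1.2. It turned to 0.31, not called, in hair follicle-like cells with weaker names kept. The cause was not tested. The highest class was the same for 5 of 8 members under 5% mitochondrial UMIs, at resolution 1.2 and without integration, for 8 without doublets and for 7 with weaker names kept. With 1 mouse left out it was the same for 7 to 8, and no fit was possible, because 15 classes leave no residual degrees of freedom. Of 648 alternative member results 618 kept direction and call, or stayed uncalled in either direction. A further 15 lost and 11 gained a call, and 4 changed direction with a call in either fit. Depth limits Il1a and Tslp most, and Il1rn and Il18 outside their highest classes.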
